A study of Mus musculus with 24 samples.

Results

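The Zfp genes are mouse genes named for zinc finger proteins, and 329 genes with a symbol of Zfp followed by digits alone had a probe on the arrays. Of these, 260 were taken as expressed without drug, because their brightest probe was well above background in the sample channel on all 6 arrays of DMSO-treated T helper cells. Of the other 69 genes, 30 were above background on none of those arrays and 39 on 1 to 5 of them. The rule used brightness without drug only. A gene bright on the DMSO arrays can more easily be seen to lose signal than to gain it, so each count of changes against DMSO is set beside that of the 11266 genes of any name that meet the same rule. Just inside the rule lay Zfp60, Zfp560 and Zfp428, with a lowest normalised Cy3 signal of 6.3, 6.34 and 6.36 on the log2 scale over the DMSO arrays. Just outside it lay Zfp418, Zfp606 and Zfp820, each above background on 5 of 6 arrays, with lowest signals of 6.42, 6.41 and 6.36.

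Most proteins of this kind hold arrays of C2H2 fingers, short folds built around a zinc ion that read DNA, and some bind RNA. Many also carry a KRAB domain, which recruits the corepressor Trim28 and histone methyltransferases to silence retroelements and imprinted loci, and genes of this class lie in tandem clusters. Messages of transcriptional regulators are in general short-lived, so their level follows ongoing transcription closely.

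Th1 and Th2 cells had been differentiated in vitro from naive CD4+ T cells of female C57BL/6 mice and treated with DMSO as vehicle, with flavopiridol or with JQ1. Flavopiridol inhibits P-TEFb, the kinase that releases RNA polymerase II into elongation, and JQ1 displaces BET bromodomain proteins from acetylated chromatin. The arrays asked how far transcription in these cells depends on either step. Each of 24 two-colour arrays set 1 condition, labelled with Cy3, against naive CD4+CD62L+CD25-CD44lo T cells from lymph nodes and spleens, labelled with Cy5. The DMSO groups were Th1 cells at 6 hr, Th1 cells at 24 hr and Th2 cells, each unstimulated and reactivated. JQ1 was given at 50 and 500 nM and flavopiridol at 1 and 10 µM for 6 hr to unstimulated and reactivated cells of both types, and 500 nM JQ1 also for 24 hr to Th1 cells. The titles of the Th2 DMSO arrays gave 24 hr and their source names 6 hr, so their time is unclear. No condition had a replicate. Tests therefore rest on changes that recur over the 4 contexts of Th1 or Th2 cells, unstimulated or reactivated, and levels are log2 ratios of sample over naive cells.

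Several facts of the whole series touch every value below. The share of probes above background was 35.4% to 41.5% on the 8 flavopiridol arrays and 43.8% to 52% on the others. Spike-in RNA lay at -0.77 to -0.27 (log2 ratio after loess) on the DMSO arrays, at 0.94 on the array of reactivated Th1 cells with 500 nM JQ1 for 6 hr, and at 0.38 to 0.63 on the Th2 flavopiridol arrays, so all changes are relative to the bulk of genes. No slide held a flavopiridol array together with its 6 hr control, and slide and flavopiridol cannot be told apart. Of 9 markers of B cells, myeloid cells, CD8 T cells and NK cells, 5 were above background on all DMSO arrays, while Lyz2 and Ncr1 were so on none. Their summed Cy3 signal was 12600 to 21200 on DMSO arrays, 11700 to 20200 on JQ1 arrays and 5450 to 15300 on flavopiridol arrays, and the part of such cells in the results was not tested. On arrays of bulk cells, fewer cells and less RNA per cell cannot be told apart.

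Without drug, the Zfp genes lay slightly below their level in naive cells. The median ratio of the 260 genes was -0.28 to -0.05 over the 6 DMSO arrays, against 0.06 to 0.08 for genes of any name under the same rule. On all 6 arrays 4 Zfp genes (1.54%) were at least 2-fold below naive cells and 3 (1.15%) at least 2-fold above, against 2.37% and 6.65% of genes under the rule. Because the rule used the sample channel of these arrays, these ratios are a description. Zfp367, with a mean ratio of 2.58 ± 0.36 (SD, n = 6 arrays of different conditions), Zfp948 at 2.11 ± 0.77, Zfp473 at 2.10 ± 0.85 and Zfp768 at 1.93 ± 0.37 had the highest mean ratios. Zfp473 is known for its part in the 3′ processing of histone mRNAs. Zfp975 at -3.42 ± 1.13, Zfp710 at -2.40 ± 1.02 and Zfp946 at -2.26 ± 0.38 had the lowest.

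**Figure D1:**
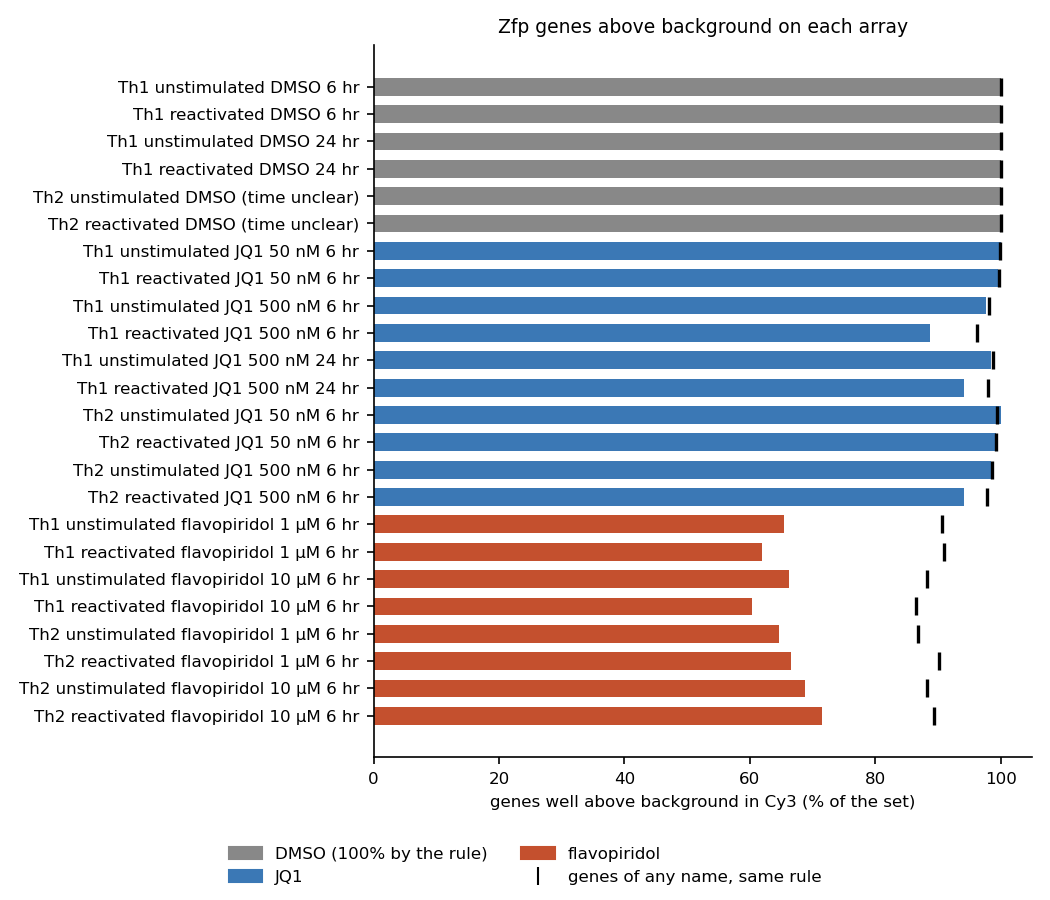
Share of the 260 Zfp genes whose brightest probe was well above background in the sample channel of each array (bars, in percent), with the share of the 11266 genes of any name under the same rule (black ticks). The DMSO bars are 100% by the rule. All 8 flavopiridol bars lie between 60.4% and 71.5%, below the ticks at 86.5% to 90.9%.

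Under flavopiridol many Zfp messages were no longer measurable. Between 157 and 186 of the 260 genes were above background on the 8 flavopiridol arrays, that is 60.4% to 71.5%, while 86.5% to 90.9% of the genes of any name under the rule were. On the 6 arrays of 500 nM JQ1, 231 to 256 Zfp genes (88.8% to 98.5%) were above background, against 96.3% to 98.8% of genes under the rule. The lowest count was in reactivated Th1 cells treated with JQ1 for 6 hr. The shares on DMSO arrays are fixed by the rule, so these counts carry no test against DMSO. The Zfp genes and the genes of any name were not matched for brightness. A dim gene drops to background with a smaller fall than a bright one, so the gap in shares does not measure a difference in loss. No JQ1 array was as low as any flavopiridol array.

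At 10 µM flavopiridol 149 of the 260 Zfp genes fell and 12 rose (limma on 12 arrays with context as a block, adjusted p below 0.05 over all genes tested). The share that fell was 57.3%, against 35.9% of the genes under the same rule, and the share that rose was 4.62% against 15.6%. Called in either direction were 51.4% of those genes, and 48.9% of all genes tested. The median change was -0.54 (log2), against -0.28 under the rule and -0.22 for all genes. At 1 µM 175 fell and 17 rose, with 38.1% and 16.2% of the genes under the rule doing so (54.2% of them and 51.7% of all genes tested were called), and the median was -0.68. Of the 149 genes that fell at 10 µM, 91 were above background on all 4 arrays of that dose, 27 on some and 31 on none. All 12 that rose were above background on all 4. When members were chosen instead by the naive reference channel of the arrays, which no drug touched, 146 of 265 genes tested fell and 12 rose, against 33.7% and 16.5% of genes of any name chosen in that channel.

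**Figure D2:**
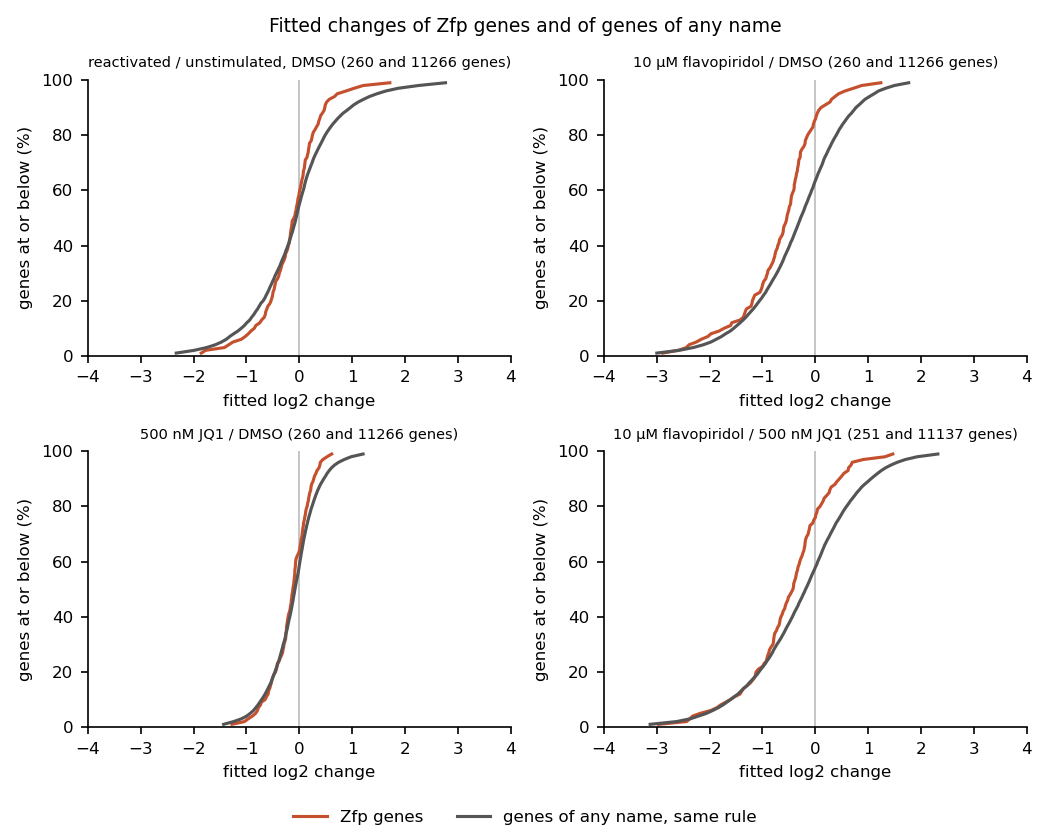
Cumulative distribution of fitted log2 changes of the Zfp genes (orange) and of genes of any name under the same brightness rule (grey), in percent of genes, for 4 comparisons. Except at their lower ends, where the curves meet, the orange curve lies to the left of the grey in both flavopiridol panels, with medians of -0.54 against -0.28 and of -0.42 against -0.18, and with JQ1 the medians are -0.12 against -0.08 and the orange curve lies to the left in the upper part, at 0.389 against 0.667 at the 95th percentile.

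The falls named here are the 8 largest that had the same sign in all 4 contexts. That choice by size and sign favours groups that do not overlap, here and for the rises and JQ1 genes named below. Zfp747 had the largest, -3.50 ± 0.23 (SE, limma adjusted p = 2.03e-05). Its ratio to naive cells with DMSO was -0.13 and -0.04 in unstimulated and reactivated Th1 cells, and -0.14 and -0.24 in Th2 cells. With 10 µM flavopiridol it was -3.91, -3.96, -3.38 and -3.29 in the same order. Every flavopiridol value lay far under every DMSO value, and a second probe of the gene gave -2.52.

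Zfp622, whose yeast counterpart acts in late maturation of the large ribosomal subunit, fell by 3.19 ± 0.24 (adjusted p = 3.32e-05). Its ratio was 0.44, 0.63, 0.15 and 0.46 with DMSO and -3.17, -2.77, -2.86 and -2.27 with 10 µM flavopiridol. The groups did not overlap, and the gene stayed above background on all 4 arrays of the drug. Zfp703, a transcriptional corepressor known as a breast cancer oncogene, fell by 2.97 ± 0.37 (adjusted p = 0.000298). It had ratios of 1.12, 2.09, 0.92 and 2.11 with DMSO and of -1.70, -1.92, -1.41 and -0.61 with the drug. Its reference signal varied by 1.48 log2 units over the arrays, and the sample channel alone gave -3.37.

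Among the other falls, Zfp46 (-2.83 ± 0.19, adjusted p = 2.21e-05) was above background on 2 of 4 arrays of the drug, so its size is uncertain. Zfp663, Zfp35, Zfp52 and Zfp330 fell, with changes of -2.60, -2.60, -2.58 and -2.51, and all were above background throughout. Probes did not give 1 size for Zfp35 and Zfp330, whose second probes gave -0.43 and -1.54. Over all called members, 58 of 73 other probes had the sign of the call with flavopiridol and 44 of 49 with JQ1. At 1 µM the 8 changes were -3.21, -3.04, -2.58, -2.85, -2.11, -2.33, -2.15 and -2.90 in the order named.

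Rises were few and smaller. Zfp352, a gene known from early embryos, rose by 1.83 ± 0.17 (adjusted p = 7.64e-05), from ratios of 0.58, 0.34, 0.71 and 0.26 with DMSO to 1.97, 1.86, 2.80 and 2.59 with 10 µM flavopiridol. Zfp692 rose by 1.44 ± 0.20 (adjusted p = 0.000471), from -1.36, -1.14, -0.72 and -1.22 to -0.06, -0.40, 1.1 and 0.67. Neither gene's groups overlapped. Zfp790 (1.71), Zfp672 (1.1) and Zfp316 (1.02) rose too, but the second probes of Zfp790 and Zfp672 gave -0.76 and -0.94, the opposite direction, and that of Zfp316 gave 0.27. Zfp352, Zfp790, Zfp692, Zfp672 and Zfp316 had a negative change when arrays were centred on spike-in RNA (-0.15, -0.26, -0.49, -0.79 and -0.93), and Zfp672 and Zfp316 also with median centring (-0.21 and -0.34). They rose relative to the bulk of genes on the array, and that bulk itself moved: the median change of all genes was -0.22 with loess, -1.05 on arrays centred on their median, -1.64 on arrays centred on spike-ins and -0.96 when spike-ins were set to 0 after loess. The Zfp median lay below that of all genes by 0.32 to 0.56 under each of these 4 scalings, and with the scanner software's own log ratio it was -1.32 against -0.24, and only 2, 0 and 3 Zfp genes rose under the other scalings.

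Promoter sequence is shown for members at the extremes of these changes, to set their upstream regions side by side. The 250 bases before the RefSeq transcription start (GRCm38.p6) are printed 5′ to 3′ on the gene's strand, with capitals for matches to the motifs searched, which were the CCAAT box (CCAAT), the TATA box (TATAAA), the GC box (GGGCGG), the ETS core (CCGGAA), the E-box (CACGTG), the CRE (TGACGTCA), the AP-1 site (TGAGTCA), the YY1 core (AAGATGG), the NRF1 core and an NF-kB site, on both strands. The first 3 genes are among the 8 named falls with flavopiridol and were above background on all 4 arrays, Zfp692 rose with it, and Zfp768 fell and Zfp655 rose with JQ1.
Zfp747 (chr7:127376051-127376300, minus strand): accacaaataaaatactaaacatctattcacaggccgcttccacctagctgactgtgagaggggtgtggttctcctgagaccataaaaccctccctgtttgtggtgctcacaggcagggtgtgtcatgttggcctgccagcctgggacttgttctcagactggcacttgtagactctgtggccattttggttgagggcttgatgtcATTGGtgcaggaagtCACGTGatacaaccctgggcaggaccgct
Zfp622 (chr15:25984116-25984365, plus strand): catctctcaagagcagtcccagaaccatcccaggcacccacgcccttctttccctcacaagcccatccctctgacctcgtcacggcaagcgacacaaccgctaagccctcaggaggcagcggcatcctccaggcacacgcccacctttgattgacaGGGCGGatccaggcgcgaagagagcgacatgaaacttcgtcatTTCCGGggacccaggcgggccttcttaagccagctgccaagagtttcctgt
Zfp330 (chr8:82774146-82774395, minus strand): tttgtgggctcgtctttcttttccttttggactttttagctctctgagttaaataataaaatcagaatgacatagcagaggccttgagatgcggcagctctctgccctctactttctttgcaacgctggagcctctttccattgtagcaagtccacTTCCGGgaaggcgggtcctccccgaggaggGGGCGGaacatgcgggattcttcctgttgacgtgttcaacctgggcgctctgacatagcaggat
Zfp692 (chr11:58306819-58307068, plus strand): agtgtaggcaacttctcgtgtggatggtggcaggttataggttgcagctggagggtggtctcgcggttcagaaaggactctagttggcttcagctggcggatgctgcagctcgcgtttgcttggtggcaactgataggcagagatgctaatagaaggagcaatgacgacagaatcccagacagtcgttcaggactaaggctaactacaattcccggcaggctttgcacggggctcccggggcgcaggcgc
Zfp768 (chr7:127345315-127345564, minus strand): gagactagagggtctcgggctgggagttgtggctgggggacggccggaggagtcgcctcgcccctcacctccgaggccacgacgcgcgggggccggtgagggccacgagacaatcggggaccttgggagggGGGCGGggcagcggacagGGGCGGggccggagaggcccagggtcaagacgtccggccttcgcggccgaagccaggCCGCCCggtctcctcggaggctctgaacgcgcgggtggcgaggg
Zfp655 (chr5:145231492-145231741, plus strand): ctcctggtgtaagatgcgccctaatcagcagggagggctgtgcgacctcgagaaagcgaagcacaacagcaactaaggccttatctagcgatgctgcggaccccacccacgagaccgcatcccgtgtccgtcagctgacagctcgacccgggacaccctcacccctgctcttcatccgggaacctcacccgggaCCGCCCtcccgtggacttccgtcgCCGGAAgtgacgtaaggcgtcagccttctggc

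An ETS core stood in the upstream regions of Zfp622, Zfp330 and Zfp655, GC boxes in the same regions and in that of Zfp768, a CCAAT box and an E-box in that of Zfp747, and no searched motif in that of Zfp692. Of the 260 genes, 219 had an upstream region in the table. An ETS core was found in 29.7% of them, in 23.3% of the 9082 regions of genes under the same brightness rule and in 12.2% of all 27025 regions. The CCAAT box was found in 47.5%, 37% and 34.5%, the GC box in 43.4%, 58.5% and 32.9%, and the TATA box in 5.94%, 6.67% and 13%. Among members that fell with flavopiridol, 33.6% of 122 held the ETS core and 46.7% the CCAAT box, and among the 86 not called 26.7% and 50% did. E-boxes stood in 13 of the 122 that fell and in 4 of the 86 not called (4.65%), against 8.62% of regions under the rule, and CREs in 7 (5.74%) and 2 (2.33%), against 2.88%. YY1 cores and AP-1 sites stood in 4.11% and 3.65% of member regions, NRF1 cores in 2.74% and the NF-kB site in none. These are counts of letters in a fixed window at an annotated start, which need not be the start used in T cells.

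With 500 nM JQ1 91 of the 260 Zfp genes fell and 31 rose (limma, adjusted p below 0.05). The shares were 35% and 11.9%, against 32.2% and 18.4% of the genes under the same rule, of which 50.6% were called in either direction, as were 47.5% of all genes tested. The median change was -0.12, against -0.08 under the rule and -0.07 for all genes. With 50 nM JQ1 limma called none of the 260 (0.382% of genes under the rule, 0.284% higher and 0.0976% lower, and 0.333% of all genes tested), and 23 had an unadjusted p below 0.05. The split of the calls moved with scaling: 74.6% of calls were falls with loess, 98.6% with median centring and 100% with either spike-in scaling. Counts of falls and rises were 42 and 6 on the Th1 arrays of the slide that holds both JQ1 and DMSO, and 65 and 13 with the slide as a fixed block. Without the context as a block they were 14 and 5.

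**Figure D3:**
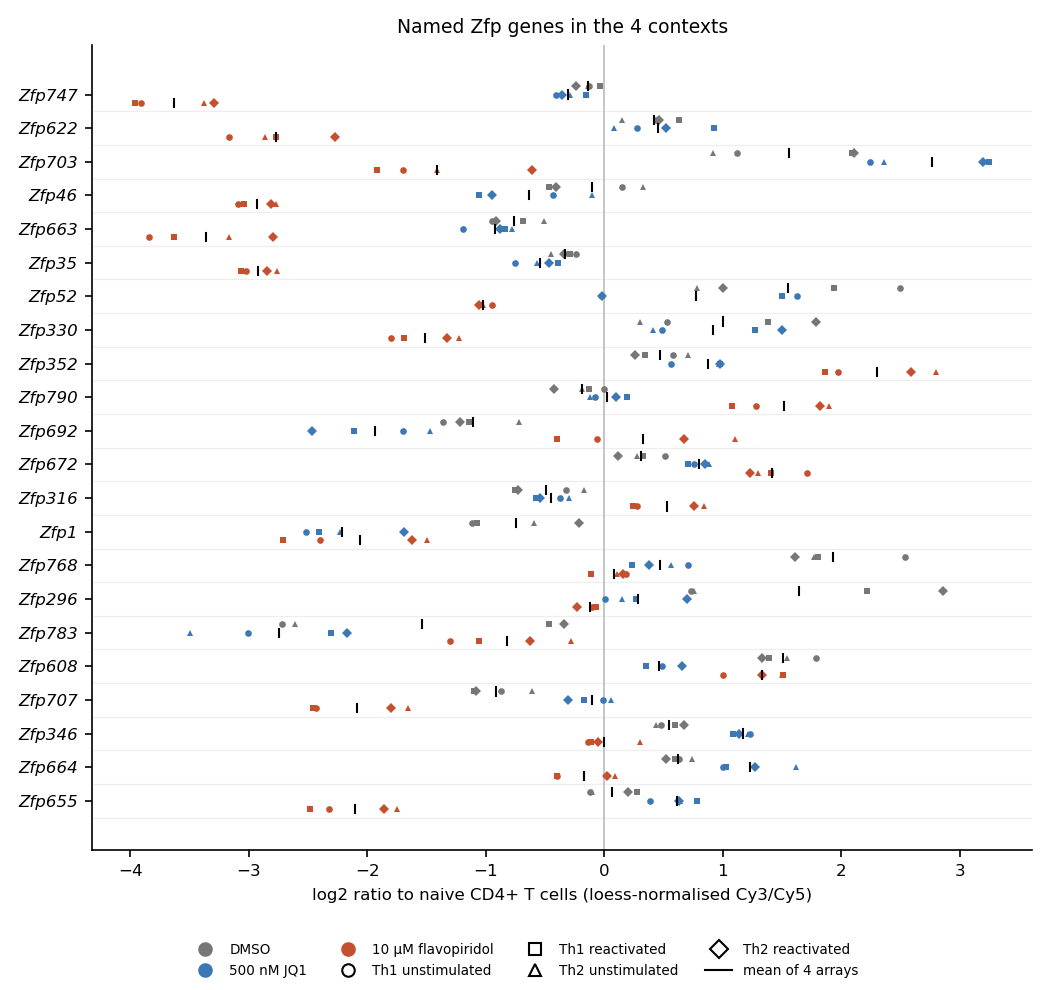
Log2 ratio to naive CD4+ T cells of the named Zfp genes with DMSO (grey), 500 nM JQ1 (blue) and 10 µM flavopiridol (orange), 1 point per array and context (shapes), with black lines at the mean of 4 arrays. In the upper 8 rows all orange points lie left of the grey ones, and in the bottom 4 rows, Zfp707 to Zfp655, blue points lie right of the grey and orange points left.

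Zfp768 and Zfp1 had the largest falls with JQ1. The ratio of Zfp768 was 2.54, 1.80, 1.77 and 1.61 with DMSO in the 4 contexts and 0.71, 0.23, 0.56 and 0.38 with 500 nM JQ1, a change of -1.46 ± 0.12 (adjusted p = 1.15e-05). The groups did not overlap. At 24 hr, in Th1 cells against their own DMSO arrays, it was -1.52 in unstimulated and -1.36 in reactivated cells. With flavopiridol it was above background on none of the 4 arrays of 10 µM, which bounds its fall in the sample channel to at least 3.22-fold.

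Zfp1 fell by 1.46 ± 0.075 (adjusted p = 1.11e-06), with ratios of -1.12, -1.07, -0.59 and -0.21 with DMSO and -2.52, -2.41, -2.23 and -1.69 with 500 nM JQ1, and at 24 hr the differences were -0.65 and -0.77. Zfp296, Zfp783, Zfp608, Zfp239, Zfp358 and Zfp637 fell, with changes of -1.36, -1.21, -1.05, -1.04, -1.01 and -0.99. Zfp239 was above background on none of the 4 arrays of 500 nM JQ1, so its level there has only a bound. Zfp637 and Zfp239 are direct neighbours in the RefSeq gene order, and with 10 µM flavopiridol Zfp637 fell by 1.71 (adjusted p = 5.94e-05) while Zfp239 had -0.11 (adjusted p = 0.653).

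Zfp703 had the largest rise with JQ1, 1.20 ± 0.081 (adjusted p = 3.76e-06), from ratios of 1.12, 2.09, 0.92 and 2.11 to 2.24, 3.25, 2.36 and 3.2. In each context the JQ1 array lay above its own DMSO array, and at 24 hr the differences were 1.11 in unstimulated and 0.90 in reactivated cells. Zfp707, Zfp346, Zfp664 and Zfp655 rose by 0.81, 0.62, 0.61 and 0.55. All 4 fell with 10 µM flavopiridol, with changes of -1.17, -0.55, -0.79 and -2.16, although a second probe of Zfp707 gave 0.86 there. Zfp346 encodes a protein that binds double-stranded RNA. With spike-in centring the change of Zfp655 was -0.07, and with spike-in scalings none of the 260 genes rose with JQ1. Of the 91 genes that fell at 6 hr, 64 (70.3%) were lower in both 24 hr pairs, which share no array with the 6 hr fit, and of the 31 that rose 21 (67.7%) were higher in both. For genes under the same rule these shares were 80.3% and 82.1%.

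The drugs were then compared with each other, on 8 arrays that the rule had not used. In each context the JQ1 and flavopiridol arrays lay on different slides, so drug and slide cannot be told apart here either. With 10 µM flavopiridol 109 of 251 Zfp genes tested were lower than with 500 nM JQ1 and 18 higher (limma, adjusted p below 0.05), which is 43.4% and 7.17% against 31.7% and 19.1% of genes under the same rule (50.8% of them, and 49.4% of all genes tested, in either direction). The median difference was -0.42, and -0.18 under the rule. A gene could enter this fit through its JQ1 arrays alone, and of the 109, 76 were above background on all 4 arrays of flavopiridol, 24 on some and 9 on none. Among the 147 Zfp genes above background on all 8 arrays 75 were lower and 14 higher (51% and 9.52%, against 31.3% and 21.2% of genes under the rule that passed the same filter). The largest differences were those of Zfp703 (-4.17 ± 0.27, adjusted p = 5e-04), Zfp747 (-3.33 ± 0.20), Zfp622 (-3.22 ± 0.21) and Zfp655 (-2.71 ± 0.20). Probes of Zfp655 differed in size, and its other 2 gave -0.49 and -0.21 with flavopiridol against DMSO where the brightest gave -2.16. In the other direction stood Zfp692 (2.26 ± 0.29, adjusted p = 0.00185), Zfp783 (1.93), Zfp790 (1.5) and Zfp467 (1.44). Zfp692 fell with JQ1 (-0.83, adjusted p = 0.000404) and rose with flavopiridol, and Zfp703 did the reverse. Zfp672, the direct neighbour of Zfp692 in the RefSeq gene order, had 1.1 with flavopiridol and 0.49 with JQ1 (adjusted p = 0.00343). Zfp1 had a difference of 0.16 ± 0.20 (adjusted p = 0.553) between the drugs, which does not show that they act alike on it. With a spike-in shift after loess 42 Zfp genes were lower and 2 higher, and without the unstimulated Th1 array of 10 µM flavopiridol 83 were called in place of 127.

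On reactivation without drug the share of Zfp genes that fell was near that of genes under the same rule, and the share that rose was below it. Of the 260, 32 rose and 74 fell (limma on the 3 pairs of DMSO arrays, adjusted p below 0.05). The shares were 12.3% and 28.5%, against 22.1% and 30.1% of the genes under the same rule, of which 52.2% were called, as were 51% of all genes tested. The balance depended on scaling, with 49 higher and 34 lower after spike-in centring and 65 and 34 after a spike-in shift. Without the unstimulated or the reactivated 24 hr Th1 array 60 genes were called in place of 106.

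Zfp593, whose yeast counterpart takes part in export of the large ribosomal subunit, had the largest rise, 2.84 ± 0.21 (adjusted p = 0.000277). Its ratio went from -1.19 to 1.15 in Th1 cells at 6 hr, from -1.29 to 1.49 at 24 hr and from -1.55 to 1.84 in Th2 cells. Zfp783, Zfp296, Zfp566 and Zfp330 rose by 1.98, 1.82, 1.64 and 1.32. The largest falls were those of Zfp287 (-2.03 ± 0.19, adjusted p = 0.000468), Zfp395 (-1.99), Zfp362 (-1.92), Zfp260 (-1.81) and Zfp358 (-1.78). Zfp287 went from 0.10 to -1.44, from 0.27 to -1.87 and from 0.37 to -2.05 in the same order of pairs. The direction held in 3 of 3 pairs for each of these genes, as the choice of genes required.

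Whether a drug acted alike in reactivated and unstimulated cells was tested by an interaction term. For flavopiridol 17 of 260 Zfp genes differed, 12 of them more positive and 5 more negative after reactivation (limma, adjusted p below 0.05), or 4.62% and 1.92% against 9.44% and 7.01% of genes under the same rule (16.5% of them and 15.8% of all genes tested in either direction). Zfp593, Zfp783, Zfp296 and Zfp566, which reactivation raised without drug, had the largest negative terms, and Zfp395, Zfp358, Zfp362 and Zfp217 the largest positive ones. The term subtracts the change on reactivation with DMSO, on arrays that the reactivation fit also used. Opposite signs of the term and of that change are therefore favoured by construction, for either drug. The count rested on single arrays: it was 2 and 4 without the unstimulated or reactivated Th2 array of 10 µM flavopiridol, 7 without the unstimulated Th2 DMSO or the unstimulated Th1 flavopiridol array, 9 without the reactivated Th1 flavopiridol array, and 35 when the DMSO array of reactivated Th1 cells was dropped, and without the unstimulated Th1 DMSO array it was 7 higher and 10 lower. Centred on spike-ins it was 4, and shifted to them 2. Zfp217, an oncogenic transcriptional regulator, fell on reactivation without drug by 1.75 (adjusted p = 0.000547). Zfp593 had an interaction of -2.85 ± 0.28 (adjusted p = 0.00252). With 10 µM flavopiridol its ratio was -2.34 in both unstimulated and reactivated Th1 cells, and -2.09 and -2.07 in Th2 cells.

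For Zfp395, above background on 3 of the 4 arrays of the drug, the term was 2.05 ± 0.30 (adjusted p = 0.00698). With DMSO its ratio went from 0.93 to -0.92 in Th1 cells and from 0.93 to -1.12 in Th2 cells, and with flavopiridol from -0.43 to -0.25 and from -0.14 to -0.12. The ratio of Zfp783 in unstimulated cells was -2.72 and -2.61 with DMSO and -1.30 and -0.28 with flavopiridol, higher with the drug, while in reactivated cells it was -0.47 and -0.34 with DMSO and -1.06 and -0.63 with flavopiridol. Zfp296 was above background on none of the arrays of 10 µM flavopiridol, so its values there are bounds.

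**Figure D4:**
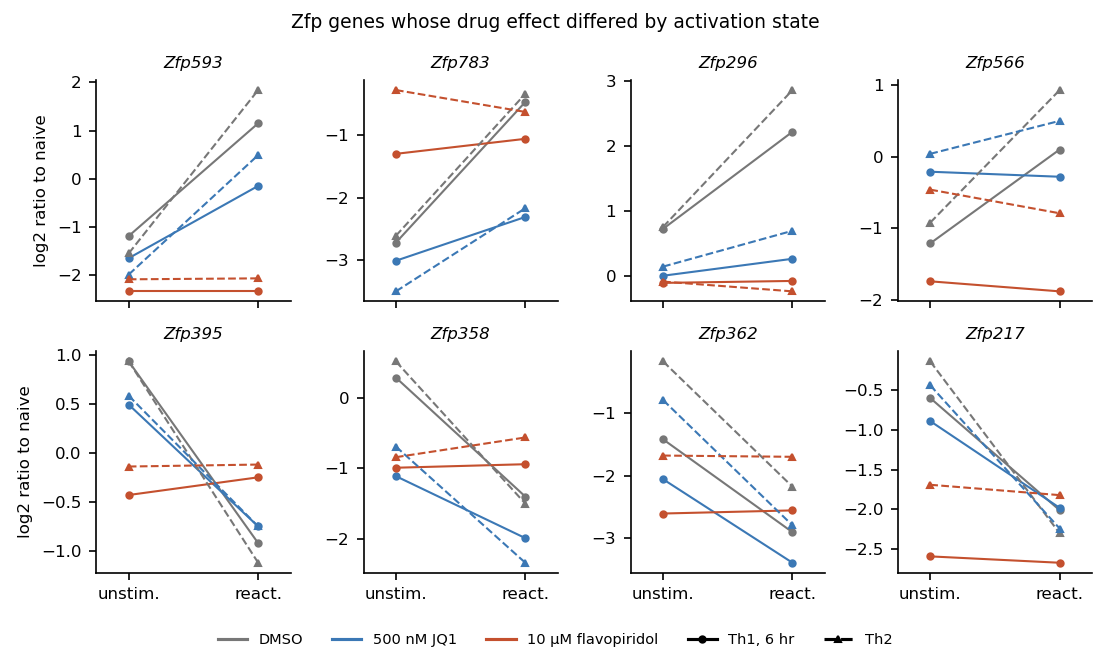
Log2 ratio to naive CD4+ T cells of 8 Zfp genes in unstimulated and reactivated cells with DMSO (grey), 500 nM JQ1 (blue) and 10 µM flavopiridol (orange), in Th1 (solid, circles) and Th2 cells (dashed, triangles), 1 array per point. Grey lines rise in the upper row and fall in the lower row, and orange lines are nearly level.

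For JQ1 16 Zfp genes differed by state, 8 in each direction (3.08% each, against 4.7% and 5.67% under the same rule, with 10.4% of those and 10.1% of all genes tested in either direction). Zfp566 (-1.38 ± 0.17, adjusted p = 0.0021), Zfp296 (-1.38), Zfp783 (-1.24) and Zfp593 (-0.88) had the largest negative terms. The ratio of Zfp566 went from -1.21 to 0.10 on reactivation of Th1 cells with DMSO and from -0.92 to 0.93 in Th2 cells, and with 500 nM JQ1 from -0.21 to -0.28 and from 0.04 to 0.50. JQ1 arrays of unstimulated cells thus lay above their DMSO arrays for this gene. The positive terms of Zfp365 (0.79), Zfp128 (0.78), Zfp580 (0.78) and Zfp395 (0.66) turned negative with either spike-in scaling, between -0.08 and -0.53. Zfp128 was above background on 1 of the 4 arrays of 500 nM JQ1. The count of 16 fell to 4 without the unstimulated Th2 DMSO array, to 5 without either reactivated DMSO array, to 6 without the unstimulated Th1 DMSO or the reactivated Th1 JQ1 array, and to 7 without the unstimulated Th2 JQ1 array. With median centring 7 were called, and with spike-in centring or shift 185 and 207, all negative. No Zfp gene was called as differing between Th1 and Th2 cells in its response to either drug (limma, 0.00888% of genes under the rule and 0.0161% of all genes tested with flavopiridol, and 0% with JQ1), with 29 and 14 genes at an unadjusted p below 0.05. As this fit called almost no gene of any name, the lack of calls does not show a like response. The median flavopiridol term of Zfp genes was -0.26 (Th1 against Th2) beside -0.03 under the rule, and it was 0.03 with median centring, 0.36 centred on spike-ins and 0.57 after a spike-in shift. These scalings moved all genes together, and the Zfp median minus that of all genes was -0.24 to -0.20 under each of the 4. The flavopiridol arrays of Th1 cells were all on 1 slide and those of Th2 cells on another. Cell type and slide therefore cannot be told apart in this term, and the time of the Th2 controls is unclear. The median change with 10 µM was -0.72 and -0.67 in unstimulated and reactivated Th1 cells and -0.54 and -0.38 in Th2 cells, beside -0.28, -0.20, -0.34 and -0.22 for genes under the rule.

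Members with known roles were followed as fixed lists. Of 8 genes acting on RNA or ribosomes, 4 fell and 1 rose with 10 µM flavopiridol, where 35.9% of genes under the same rule fell and 15.6% rose. Zfp622 fell as above, and Zfp593 fell by 2.27 (limma adjusted p = 0.0124), a call lost in 2 of 19 refits. Zfp830, a splicing-linked factor, fell by at least 2.26-fold because it was above background on none of the 4 arrays, and Zfp346 fell by 0.55 (adjusted p = 0.00756). Zfp106 rose by 0.58 (adjusted p = 0.00843), though its change was -0.76, -1.35 and -0.16 under median centring, spike-in centring and the spike-in shift. Zfp598, the ubiquitin ligase that senses collided ribosomes, had 0.01 (adjusted p = 0.973), and its reference signal varied by 2.63 log2 units. Zfp36, or tristetraprolin, which binds AU-rich elements and speeds mRNA decay, had 0.29 with flavopiridol (adjusted p = 0.236) and was above background on 1 of 4 arrays. It rose by 0.52 with JQ1 (adjusted p = 0.00543), and had -0.01 with a spike-in shift. Zfp326, a partner of elongating RNA polymerase II in splicing, had -0.29 with flavopiridol (adjusted p = 0.211) and fell by 0.31 with JQ1 (adjusted p = 0.0271), a call lost in 12 of 21 refits.

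Of 4 repressors of retroelements or keepers of imprints, 3 fell with flavopiridol and 1 rose. Zfp568, above background on 2 of the 4 arrays, fell by 1.49 (adjusted p = 0.000564), Zfp809, which silences murine leukaemia virus DNA, by 0.97 (adjusted p = 0.00043) and Zfp445 by 0.74 (adjusted p = 0.0252). The changes of Zfp445 were -1.07 and -1.53 in Th1 and -0.11 and -0.24 in Th2 cells, and its call was lost in 8 of 20 refits. Zfp57, which protects imprints together with Zfp445, rose by 0.89 (adjusted p = 0.000277), from ratios of -0.21, -0.31, -0.33 and -0.47 to 0.67, 0.46, 0.63 and 0.48, and had -0.48 and -1.06 with median and spike-in centring. Of 18 genes of their corepressor machinery 7 (38.9%) fell and 2 rose with flavopiridol, near the 35.9% that fell under the same rule, and Trim28 itself fell by 1.01 (adjusted p = 0.00181).

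Of 10 sequence-specific regulators 4 (40%) fell and none rose with flavopiridol, near the 35.9% of genes under the same rule that fell. Zfp281, a GC-rich sequence binder known from embryonic stem cells, fell by 2.40 (adjusted p = 0.000255), from ratios of -0.09, -0.51, -1.13 and -0.49 to -3.19, -3.37, -2.71 and -2.55. Zfp143, an activator at housekeeping promoters, fell by 1.31 (adjusted p = 0.00184), although its second probe gave -0.11, and Zfp410, the activator of Chd4, by 1.04 (adjusted p = 0.000228). Zfp292 fell by 1.23 (adjusted p = 0.0226), but its changes were -2.52 and -1.09 in unstimulated and reactivated Th1 cells and -1.37 and 0.05 in Th2 cells, and the call was lost in 7 of 20 refits. Chd4 fell by 1.45 (adjusted p = 4.62e-05). Zfp131, Zfp148, Zfp217, Zfp219, Zfp335 and Zfp384 had changes of -0.93 to 0.27, none past the threshold, and second probes of Zfp217 and Zfp148 gave 0.09 and 0.08. Of a list of 5 genes known from lymphocytes or signalling, 3 were members, and these were called as falls. They were Zfp35, Zfp318 by 0.80 (limma adjusted p = 0.00527, above background on 3 of 4 arrays) and Zfp91 (adjusted p = 0.0252). Zfp91 was above background on none of the 4, so that no size is given, and its call was lost in 7 of 18 refits. Zfp831 of the same list lay outside the rule, above background on 4 of 6 DMSO arrays and 6 of 8 flavopiridol arrays. It went the other way, with a change of 0.70 (adjusted p = 0.0762) that did not pass the threshold. With JQ1 these 4 lists of members held 2, 1, 1 and 1 genes that rose and 2, 2, 3 and 0 that fell, and on reactivation 3, 1, 2 and 0 that rose and 0, 0, 3 and 1 that fell. Some of these calls were lost in many refits, with JQ1 that of Zfp219 in 10 of 20 and Zfp318 in 9 of 21. On reactivation that of Zfp318 was lost in 10 of 16 and that of Zfp326 in 8 of 16. The calls of Zfp593 were lost in 1 of 21 and 0 of 16. Under the same rule 18.4% rose and 32.2% fell with JQ1, and 22.1% rose and 30.1% fell on reactivation, and lists this short cannot be set apart from those shares.

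Members in tandem clusters were set apart by the RefSeq gene order. Of 104 in runs of 3 or more neighbouring Zfp genes, 63 (60.6%) fell and 2 rose with 10 µM flavopiridol, and of the other 156, 86 (55.1%) fell and 10 rose. With JQ1 42 (40.4%) and 49 (31.4%) fell, and 7 (6.73%) and 24 (15.4%) rose, beside 32.2% and 18.4% of genes under the same rule, and the difference between the runs and the other genes was not tested. Genes in such runs can be close in sequence, and whether their probes share signal was not tested. Among other zinc finger families under the same brightness rule, 18 of 35 Zbtb genes (51.4%), 6 of 14 Zscan and Zkscan genes (42.9%) and 9 of 11 Klf genes (81.8%) fell with 10 µM flavopiridol, with 0, 1 and 0 that rose, beside 35.9% and 15.6% of all genes under the rule.

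Between Th1 and Th2 cells without drug few of these genes differed by 2-fold. The rule required signal on these same arrays, so genes above background in only 1 of the cell types were left out beforehand. The counts therefore describe the members only, beside genes under the same rule. In unstimulated cells 3 Zfp genes were at least 2-fold higher (1.15%, against 3.97% under the rule) and 4 at least 2-fold lower (1.54%, against 2.88%) on the 6 hr Th1 array than on the Th2 array. Higher in Th1 were Zfp948 (1.78), Zfp52 (1.71) and Zfp281 (1.04), and lower there were Zfp467 (-2.10), Zfp975 (-1.42), Zfp362 (-1.25) and Zfp579 (-1.06). In reactivated cells Zfp473 (1.19) was higher and Zfp975 (-2.19) and Zfp777 (-1.18) lower, against 2.6% and 1.83% of genes under the rule. With the 24 hr Th1 arrays in their place no Zfp gene was at least 2-fold higher in Th1 cells in either state (against 3.04% and 2.31% of genes under the rule in unstimulated and reactivated cells), and Zfp948, Zfp52 and Zfp281 had 0.43, 0.52 and 0.71 in unstimulated and Zfp473 0.20 in reactivated cells. Zfp975 (-1.88) and Zfp777 (-1.18) in reactivated and Zfp467 (-1.21) in unstimulated cells were again at least 2-fold lower, while in unstimulated cells Zfp975, Zfp362 and Zfp579 had -0.47, -0.43 and -0.94. On the 24 hr arrays 4 Zfp genes (1.54%, against 2.18% under the rule) were at least 2-fold lower in unstimulated cells and 2 (0.769%, against 1.84%) in reactivated cells. These are single pairs with no replicate check, and the time of the Th2 arrays is unclear. The SD between 2 arrays of the naive reference, 0.185 (log2, median of 276 pairs), gives a scale for the spread between arrays. The labels do not state whether 1 pool of naive cells served all arrays, so this SD may hold more than technical spread.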

How the data were processed

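Each of 24 two-colour Agilent arrays was read from its scanner file. The authors deposited median foreground and background intensity values for Cy3 and Cy5, the scanner software's log10 ratio, quality flags per spot, and a table of normalised log2 ratios. The flags for signal well above background set the member rule. The deposited log2 and log10 values served as alternatives. Intensities were background-corrected by normexp (offset 50), loess-normalised within arrays with control spots at weight 0, and expressed as log2 of Cy3 (sample) over Cy5 (naive cells) with limma 3.58.1 in R 4.3.3 and data.table (version 1.17.8). The planned mean signals were replaced by the deposited medians. Genes were named by accession through RefSeq, and each was represented by its brightest probe. Genes above background on at least 3 arrays of a fit were tested with lmFit and eBayes, context or pair as a block, and Benjamini-Hochberg adjustment over all genes tested. The procedure was tested on simulated data. P-values measure the spread between contexts, since no condition had a replicate, and the number of arrays limits the precision.

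Members and lists were chosen with earlier results of these data known. The genes named were the 8 largest falls and 5 largest rises of the same sign in 4 of 4 contexts for each drug, the 5 largest each way in 3 of 3 pairs for reactivation, the 4 largest called each way for interactions and for the comparison of the drugs, all members of the lists of known roles, and the genes nearest the edge of the rule. Alternatives covered scaling, channel, background correction, probe choice, filter, member rule, block, slide and leaving out arrays. A probe above background on no array of a group has only a bound there, the group's fold being taken against the higher of its own signal and the dimmest signal well above background. Protein sequences were not used here.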

Additional observations from a re-analysis of the deposited data

Results flagged for a closer look

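The effect of 10 µM flavopiridol differed between reactivated and unstimulated cells in 17 Zfp genes (limma interaction term, adjusted p below 0.05), a smaller share than the 16.5% of genes under the same brightness rule. Leaving out 1 array gave 2 to 35 calls, and centring on or shifting to spike-ins 4 and 2. The terms with the largest size were -2.85 for Zfp593, -2.31 for Zfp783, -1.85 for Zfp296 and -1.81 for Zfp566 on the negative side, and 2.05 for Zfp395, 2.02 for Zfp358, 1.76 for Zfp362 and 1.68 for Zfp217 on the positive side (log2). The call was lost in 8 of 11 refits for Zfp217, 7 for Zfp566 and 5 for Zfp362 and Zfp296, and Zfp296 was above background on none of the arrays of the drug, so its size is uncertain.

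The effect of 500 nM JQ1 differed between the states in 16 Zfp genes by the same test, where 10.4% of genes under the rule were called. The terms were -1.38 for Zfp566, -1.38 for Zfp296, -1.24 for Zfp783 and -0.88 for Zfp593, and 0.79 for Zfp365, 0.78 for Zfp128, 0.78 for Zfp580 and 0.66 for Zfp395, the last 4 of which turned negative under both spike-in scalings. Each term rests on 1 array per condition.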

How the results depend on the processing

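Counts of Zfp genes called moved by over 1.5 times, or turned direction, under these alternatives, and the cause was not tested unless stated. For reactivation, spike-in centring gave 83 (49 higher, 34 lower) and a spike-in shift 99 (65 and 34). For 10 µM flavopiridol, spike-in centring gave 257, a filter on all arrays of the fit 92 of 137 tested, and the Th1 arrays alone 104 of 191 tested, both of the latter with fewer genes tested. For 500 nM JQ1, dropping the context block gave 19, the Th1 arrays of 1 slide 48 and the slide as a fixed block 78. Flavopiridol against JQ1 gave 44 with a spike-in shift. The flavopiridol interaction with state gave 4 when centred on spike-ins and 2 after the shift, that of JQ1 7 (median centring), 185 (spike-in centring) and 207 (shift), and that of flavopiridol with cell type gave 2 with spike-in centring. The Th1-only fit of flavopiridol, that of reactivation (80 calls), the fixed slide block and the filter on all 8 arrays between the drugs (89 calls) were chosen after seeing the data. Leaving out 1 array at a time gave 60 to 80 calls for reactivation, 126 to 173 for flavopiridol, 102 to 116 for JQ1, 83 to 119 between the drugs, 2 to 35 and 4 to 19 for the interactions of flavopiridol and JQ1 with state, and 0 to 0 for both interactions with cell type.

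Calls of named genes were lost in 27 of 544 refits of single genes for reactivation, 33 of 709 for flavopiridol, 80 of 772 for JQ1, 8 of 111 between the drugs, and 30 and 28 of 88 for the interactions of flavopiridol and JQ1 with state. The totals for reactivation, flavopiridol and JQ1 include named genes that had no call to lose. Refits in which a called gene turned direction are not among those lost, and were 12 for flavopiridol, 10 for JQ1 and 8 for the JQ1 interaction. Among refits on the same probes, those that turned a named gene's direction were scalings. With flavopiridol, median centring gave -0.21 for Zfp672, -0.34 for Zfp316, -0.76 for Zfp106 and -0.48 for Zfp57, spike-in centring -0.15 for Zfp352, -0.26 for Zfp790, -0.49 for Zfp692, -0.79 for Zfp672, -0.93 for Zfp316, -1.35 for Zfp106 and -1.06 for Zfp57, and the shift -0.16 for Zfp106. With JQ1, median centring gave -0.06 for Zfp57 and -0.06 for Zfp131, spike-in centring -0.07 for Zfp655, -0.32 for Zfp57, -0.33 for Zfp131 and -0.07 for Zfp318, and the shift -0.01 for Zfp36, -0.27 for Zfp57, -0.25 for Zfp131 and -0.01 for Zfp318. The JQ1 interactions of Zfp365, Zfp128, Zfp580 and Zfp395 were -0.20, -0.08, -0.21 and -0.19 when centred on spike-ins, and -0.40, -0.41, -0.42 and -0.53 after the shift. The labels give 1 array per group, so no replicate number could serve as a block. The reported fits used contexts or pairs of states as blocks, and without them 82 genes were called for reactivation, 140 for flavopiridol and 19 for JQ1. Signal near background limits the size of falls with flavopiridol.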
